A study of Saccharomyces cerevisiae with 2 samples.

Results

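Yeast genes grouped as regulated by reading frames upstream of the start codon were followed through a transcript isoform map: GCN4, CPA1, CLN3, HAP4, YAP1, CAD1, SCO1, INO2 and PET111. Regulation of translation was not measured here. These 9 were chosen by name and stand among 6002 nuclear protein-coding ORFs of the R64 annotation. The map came from 1 group with 2 biological replicates, cells of Saccharomyces cerevisiae in the BY4741 background that carry delta set2::kanMX4 and so lack the histone methyltransferase Set2. The cells were in mid-log phase at OD 1 in YPAD, a rich medium with glucose. Both cultures share 1 pooled count column, so no value has a spread between replicates, and there is no wild type to compare with. Over the SET2 coding span there were 0 molecules on either strand, which allows up to 4.94e-05% of the total.

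Transcript isoform sequencing (TIF-Seq) joins both ends of each capped, polyadenylated RNA before sequencing, so it gives the start and the end of each molecule. The ATGs of each leader were inferred from the genome between that start and the start codon. An isoform is a distinct pair of a start and an end, and counts of isoforms are given as molecules. Every isoform on the strand of a gene that overlapped its coding span was taken, which gave 13538 sense molecules over the 9 genes, or 0.223% of the 6074514 molecules in the table. A leader molecule is one that started upstream of the start codon and downstream of the nearest ORF on the same strand, and its leader is the stretch between its start and the start codon. No molecular identifier is described, so several molecules of 1 isoform cannot be told apart from copies of 1 cDNA. All intervals are 95% Wilson intervals for shares or order-statistic intervals for medians, and they cover counting error only. The share that a count of 0 allows is given instead as 3 molecules over the number counted. That limit is rough where few were counted.

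An upstream open reading frame, or uORF, opens at an ATG in the leader and usually stops before the main start codon. A ribosome that scans from the cap meets it first, and it reaches the main start codon only by passing the upstream ATG or by resuming scanning after the uORF has ended. In GCN4, the best studied case, the first uORF lets ribosomes resume scanning and the last one does not, which ties synthesis of this activator of amino acid genes to starvation. Whether a leader can act in this way depends on where transcription starts, because a start downstream of the upstream ATG leaves it out.

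The upstream ATGs that the following results turn on are printed from the R64 RefSeq genome, in the sense of the mRNA, with the ATG and, where it lies within the stretch, the stop codon of its frame in capitals. Each is named by the distance of its A from the A of the main start codon. The 4 of GCN4 are shown because their short frames and the bases after the stop codon are what distinguishes them.
GCN4 at 361 nt (chrV:140101-140130, minus strand): tgaaaaATGgcttgcTAAaccgattatatt
GCN4 at 293 nt (chrV:140036-140062, minus strand): agaattATGtgtTAAatttattgaaag
GCN4 at 176 nt (chrV:139916-139945, minus strand): gctatcATGtacccgTAGaattttattcaa
GCN4 at 151 nt (chrV:139891-139920, minus strand): ttcaagATGtttccgTAAcggttacctttc

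In the other genes the upstream ATGs nearest to the observed start sites, or to the start codon, are shown, since a molecule holds such an ATG if it starts before it.
CPA1 at 134 nt (chrXV:882759-882788, plus strand): cattatATGtttagcttatcgaactctcaa
CLN3 at 315 nt (chrI:67812-67841, minus strand): agtcaaATGgatttcTGAggaaagaggact
HAP4 at 249 nt (chrXI:231972-232001, plus strand): tcgtatATGctatctacaggtccactttac
HAP4 at 61 nt (chrXI:232160-232189, plus strand): attttaATGggttgcTGAtttgttttacct
YAP1 at 85 nt (chrXIII:253757-253786, plus strand): ttgtgcATGaacacgagccattttTAGttt
CAD1 at 56 nt (chrIV:1319308-1319337, minus strand): atacgaATGgggtgttactttTAAggacga
CAD1 at 22 nt (chrIV:1319274-1319303, minus strand): taagcaATGgaacgaccagttaagataaat
SCO1 at 49 nt (chrII:311478-311507, minus strand): aaacgtATGttcgtaTAAggcaagggaaac
INO2 at 20 nt (chrIV:699465-699494, minus strand): aaatacATGgaacagcaaaggagaaaatgc

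Leaders of these genes were mostly long and mostly held an upstream ATG, but SCO1 and CAD1 departed from this. With at least 10 leader molecules required, 6 of the 9 genes could be judged, and in 5 of them (GCN4, CLN3, HAP4, YAP1 and INO2) over 50% of leader molecules held at least 1 upstream ATG. Over all 3768 ORFs with that many leader molecules, 599, or 15.9%, did so. CPA1 failed the minimum because the annotation lists its own uORF as an ORF, YOR302W, and molecules that start at or before it were then set aside. When YOR302W was counted as part of the CPA1 leader, a choice made after its values had been seen, 7 genes could be judged and 6 held an upstream ATG in over 50% of leader molecules. That reading is used for CPA1 from here on. The genes had been chosen for their uORFs, so this count describes them and is not a test.

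**Figure D1:**
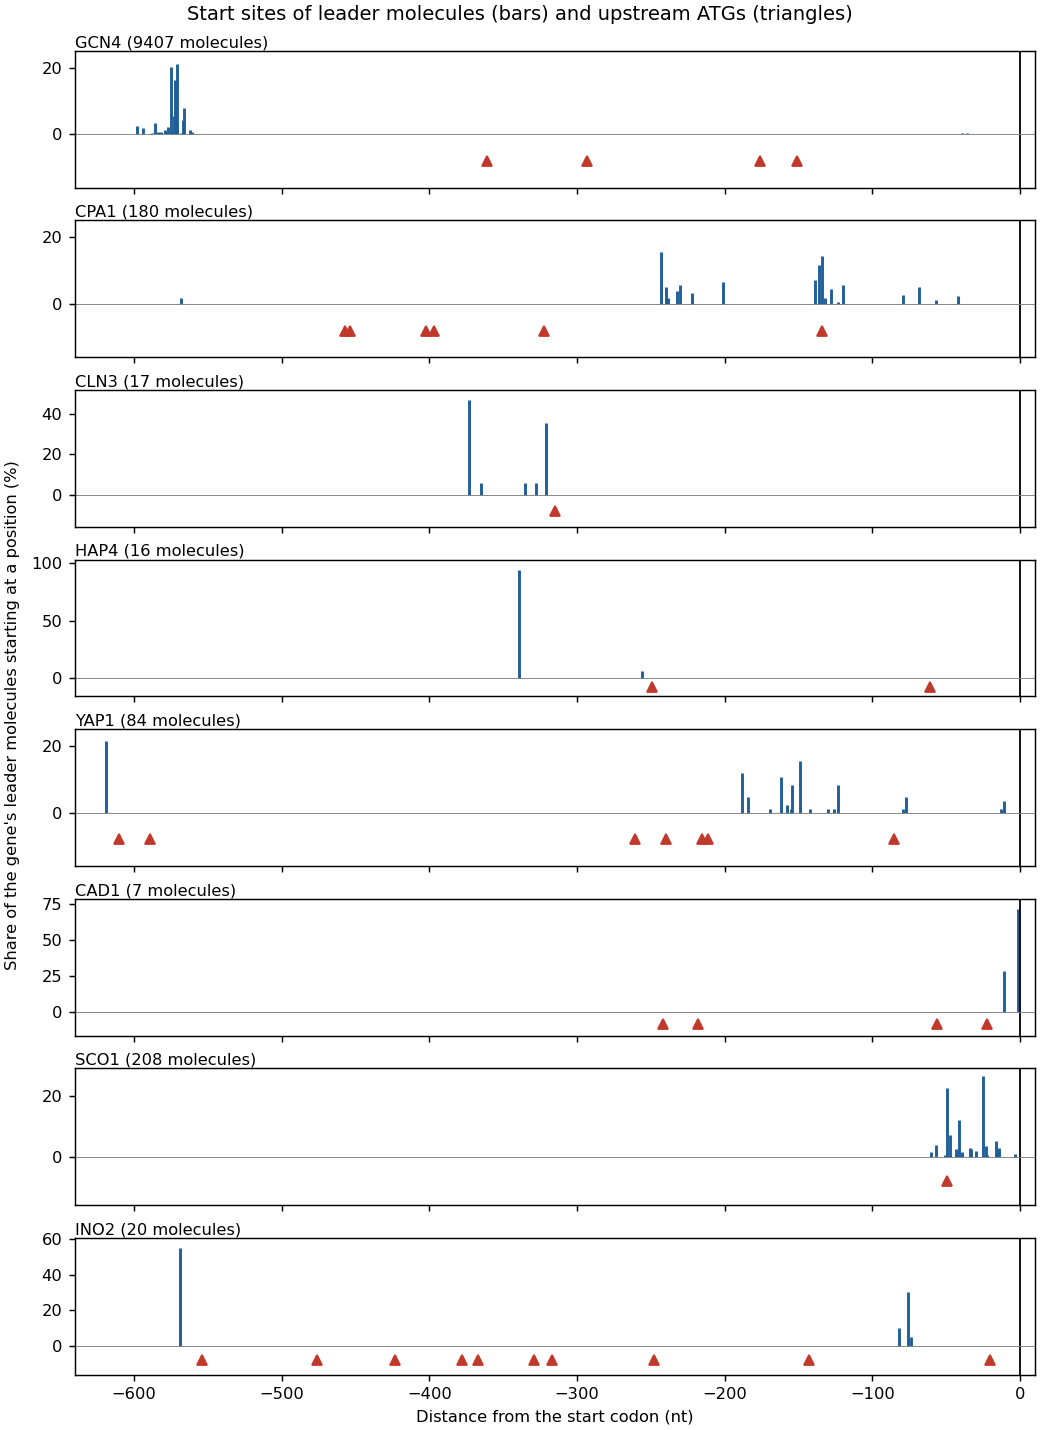
Share of each gene's leader molecules (vertical axis, %) that started at each position, against the distance from the main start codon (horizontal axis, nt). Triangles mark upstream ATGs in the genome, searched as far as the longest leader seen, or somewhat further in CAD1 and SCO1. The genome upstream of that stretch was not searched, so a lack of triangles there has no meaning. Most GCN4 starts (93.9%) lie upstream of all 4 triangles, the CPA1 and SCO1 starts lie on both sides of one, and the CAD1 starts lie downstream of both of the nearer ones.

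GCN4 (YEL009C, chromosome V, 138918 to 139763, minus strand), the transcriptional activator of amino acid biosynthesis genes, supplied 12177 sense molecules in 817 isoforms. Of its 9407 leader molecules, 9217 ran to the stop codon. The median leader was 572 nt (interval 572 to 572), with quartiles of 571 and 575 nt, and 99.2% of all ORFs had a shorter median leader. A single start-site cluster, from 611 to 542 nt upstream, held 8750 leader molecules, or 93.0%. Its most used position, 571 nt upstream, had 1974 molecules, positions 575 and 572 had 1891 and 1519, and 75.9% of leader molecules started within 5 nt of the first. Most GCN4 leader molecules therefore began within this 1 cluster, which held 222 of the 374 leader isoforms.

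All 4 GCN4 uORFs were held by 8836 leader molecules, or 93.9% (93.4% to 94.4%). The frame at 361 nt was in 8836 molecules, that at 293 nt in 8870, that at 176 nt in 9003 and that at 151 nt in 9017. The frames encode 3, 2, 3 and 3 codons before the stop codon. In the 10 nt after the stop codon, A and T made up 7, 9, 9 and 5 of the bases, so the frame nearest the start codon had the fewest. All 4 have an A at position -3 relative to their ATG. The last of them ends 139 nt before the GCN4 start codon.

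The remaining GCN4 leaders were short of some or all uORFs. Those that held none numbered 390 in 86 isoforms, or 4.15% (3.76% to 4.57%), with leaders of 5 to 148 nt. Leaders that held 1, 2 or 3 uORFs numbered 14, 133 and 34. Start positions of the uORF-free leaders were scattered: the most used of 64 positions in the main cluster among them, which spans 104 to 5 nt, had 31 of its 354 molecules. Yeast start sites usually have a pyrimidine just before and a purine at the first base, a pair found at 73.3% of the 13741 start sites in the table with at least 30 molecules. In GCN4 this pair stood at the start of 70.8% of molecules with all 4 uORFs, of 26.9% of those with none and of 18.3% of the 2770 molecules that started inside the ORF. Counted over start positions, as the 73.3% is but with no minimum of molecules, it stood at 23 of 65 positions with all 4 and at 14 of 75 with none. Whether the scattered starts are sites of transcription initiation was not tested.

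The GCN4 leader variants shared their most used polyadenylated end. Of the molecules with an upstream ATG that reached the stop codon, 91.7% (91.1% to 92.2%) ended at 95 nt past it. Of those with none, 93.3% (90.4% to 95.4%) ended at that position, and of those starting inside the ORF 90.6% (89.4% to 91.6%) did. The intervals of the first pair overlap.

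CPA1 (YOR303W, chromosome XV, 882899 to 884134, plus strand), the small subunit of arginine-specific carbamoyl phosphate synthetase, had 309 sense molecules. Its uORF encodes the arginine attenuator peptide, which stalls ribosomes when arginine is plentiful. Its frame opens 134 nt upstream, runs for 25 codons before the stop codon and ends 56 nt before the main start codon. The 180 leader molecules, in 38 isoforms, had a median leader of 139 nt (136 to 201), and 177 of them reached the CPA1 stop codon.

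The start sites of CPA1 fell into 2 main clusters around that ATG. One, from 243 to 222 nt upstream, held 63 molecules, and all of them carried the uORF with a stretch of leader in front of it. The other, from 139 to 120 nt, held 82 molecules, and its most used position, with 26 molecules, was the A of the upstream ATG itself. In all, 138 molecules, or 76.7% (70.0% to 82.2%), held the whole ATG, and 42, or 23.3% (17.8% to 30.03%), started downstream of it. Of the 138, 60 had fewer than 12 nt between their first base and the ATG. With a distance of at least 12 nt required, 78 molecules held it, or 43.3%, so the share over 50% in CPA1 rests on those starts near the ATG. A single isoform of 3 molecules began 568 nt upstream and held 6 upstream ATGs. The usual pyrimidine and purine pair stood at the start of all 135 molecules that held 1 upstream ATG and of 83.3% of those that held none.

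SCO1 (YBR037C, chromosome II, 310565 to 311452, minus strand), a copper chaperone needed for assembly of cytochrome c oxidase, had 235 sense molecules, of which 208 were leader molecules, and all 208 reached the stop codon. Its leaders were the shortest among the genes that could be judged, with a median of 39 nt (30 to 41) against 44 nt over all ORFs. Its start sites made 1 broad cluster, from 60 to 14 nt upstream. Position 25 had 55 molecules, position 49 had 47 and position 41 had 25.

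The SCO1 upstream ATG lies at 49 nt, inside this start-site cluster. It was held by 59 leader molecules, or 28.4% (22.7% to 34.8%), and 149 molecules, or 71.6%, started downstream of it. Of the 59, 47 began with the A of that ATG, and the longest stretch in front of it was 11 nt. No molecule had 12 nt or more before it, 0 of 208, which allows a share of up to 1.44%. Molecules with and without the ATG ended most often at the same position, 70 nt past the stop codon. It took 57.6% (44.9% to 69.4%) of those with the ATG, 59 molecules in 11 isoforms, and 36.9% (29.6% to 44.9%) of those without it, 149 molecules in 36 isoforms. These intervals only just fail to overlap, and they count molecules, so copies of a cDNA would make them too narrow.

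YAP1 (YML007W, chromosome XIII, 253848 to 255800, plus strand) and CAD1, also called YAP2, encode related basic leucine zipper factors of the response to oxidants and cadmium. YAP1 had 404 sense molecules, of which 84 in 28 isoforms were leader molecules. The median leader was 158 nt (154 to 169). Its uORF at 85 nt, with 6 codons before the stop codon, was held by 75 leader molecules, or 89.3% (80.9% to 94.3%). Between 123 and 188 nt upstream, 57 molecules started in 3 clusters, and these held that ATG and no other. A further 18 molecules, all of 1 isoform that ended inside the ORF, started 619 nt upstream and held 7 upstream ATGs. The other 9 started 79 nt or less from the start codon and held none. Of the 84, 14 reached the stop codon of this ORF of 1953 nt, and all 14 held the uORF alone.

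CAD1 (YDR423C, chromosome IV, 1318046 to 1319275, minus strand) stood apart from YAP1. Of its 219 sense molecules, 7 in 3 isoforms started upstream of the start codon, 5 of them at the base just before it and 2 at 11 nt. Neither the ATG at 56 nt, whose frame has 5 codons before the stop codon, nor that at 22 nt, whose frame runs 47 nt into the ORF, was held by any of the 7, which allows a share of up to 42.9%. The Wilson limit of that share is 35.4%. The other 212 molecules, or 96.8%, started inside the ORF, and 111 of these fell in 1 cluster from 22 to 58 nt past the A of the start codon. Their most used start, 57 nt past it with 41 molecules, is followed by an ATG at 60 nt in the frame of CAD1. These molecules lack the annotated start codon. Across the genes, the pyrimidine and purine pair stood at the start of 50.5% of the 212 CAD1 molecules, in 52 isoforms, that began inside the ORF. In PET111 it was 50%, but of 22 molecules in 6 isoforms, of which 1 isoform had 11. The share was 26.3% in YAP1, 19.4% in CPA1 and 18.3% in GCN4. In HAP4, INO2, SCO1 and CLN3 it was 12.1%, 12.1%, 11.1% and 3.77%.

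CLN3 (YAL040C, chromosome I, 65778 to 67520, minus strand), a G1 cyclin whose uORF is known to lower its synthesis in slowly growing cells, had 70 sense molecules. Its 17 leader molecules, in 7 isoforms, had a median leader of 365 nt (321 to 373). The starts formed 2 clusters. One, at 373 and 365 nt, had 9 molecules in 2 isoforms, of which 1 reached the stop codon, and the other, from 335 to 321 nt, had 8 molecules in 5 isoforms, and all 8 reached it. Both clusters lie upstream of the ATG at 315 nt, which all 17 molecules held (lower limit 81.6%). The most used start of the second cluster, at 321 nt with 6 molecules, leaves 6 nt in front of that ATG, and 11 molecules, or 64.7%, had at least 12 nt. The frame has 3 codons before its stop codon and ends 303 nt before the start codon.

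HAP4 (YKL109W, chromosome XI, 232227 to 233891, plus strand), the regulated subunit of the activator of respiratory genes, had 49 sense molecules and 16 leader molecules. Of these, 15 were 1 isoform that started 339 nt upstream and ended 360 nt past the stop codon, a molecule of 2364 nt. The other started at 256 nt and ended inside the ORF. All 16 held both upstream ATGs, at 249 and 61 nt (lower limit 80.6%), with frames of 9 and 3 codons before the stop codon. The value for HAP4 rests on 2 isoforms.

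INO2 (YDR123C, chromosome IV, 698554 to 699468, minus strand), a helix-loop-helix activator of phospholipid synthesis genes, had 53 sense molecules. Its 20 leader molecules came from 6 isoforms and split into 2 starts. At 569 nt there were 11 molecules in 2 isoforms, and these held 10 upstream ATGs. From 82 to 74 nt there were 9 molecules in 4 isoforms, and these held 1, the ATG at 20 nt. That ATG was thus in all 20 leader molecules (lower limit 83.9%), and its frame of 19 codons overlaps the INO2 start codon and runs 40 nt into the ORF. Both kinds of molecule had an end 616 nt past the stop codon as their shared most used end, with 15 of the 20. The median of 569 nt (76 to 569) describes neither kind well, since the interval spans both.

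PET111 (YMR257C, chromosome XIII, 779629 to 782031, minus strand), a mitochondrial activator of translation of the COX2 mRNA, had 22 sense molecules in 6 isoforms. All 22 started inside the ORF, and 11 of them began 1869 nt past the A of the start codon. Of leader molecules there were 0 of 22, which allows a share of up to 13.6%. The ORF has 2403 nt, and molecules over 2000 nt were 0.503% of the table. The part of molecule length in the missing leaders was not tested. Within the stretch searched, the genome holds ATGs at 108 and 89 nt upstream of PET111. Whether molecules that reach its ORF carry them could not be measured at this depth. The search stopped short of 388 nt, where 5 molecules that ended before the start codon began. It does not show whether further ATGs lie upstream.

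**Figure D2:**
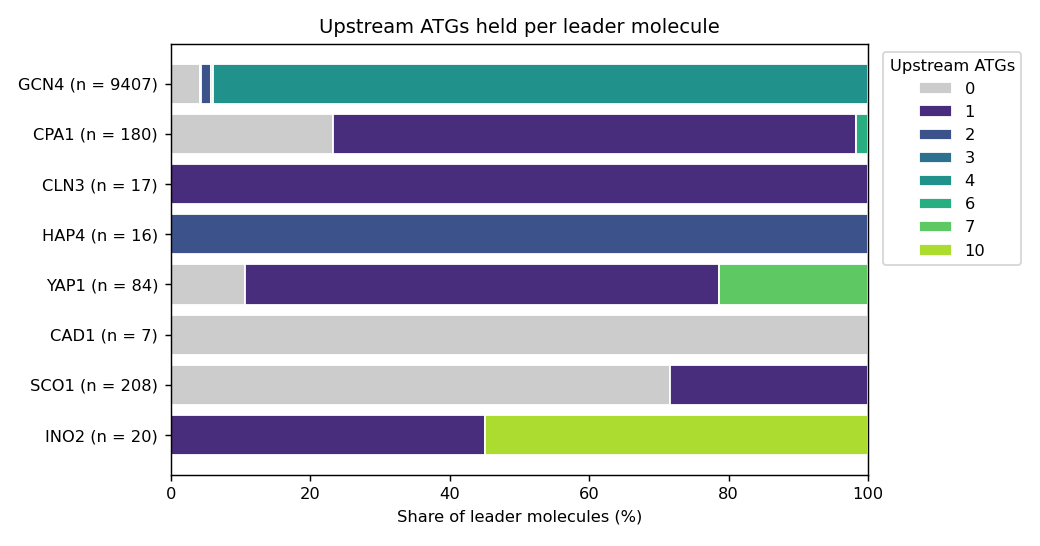
Share of leader molecules (horizontal axis, %) by the number of upstream ATGs held (colour), for each gene with a leader molecule; n is the number of leader molecules. GCN4 is mainly 4 upstream ATGs (93.9%), SCO1 is mainly none (71.6%) and INO2 is split between 1 and 10.

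Among the 9 genes, starts inside the ORF took from 11.5% of sense molecules in SCO1 and 22.7% in GCN4 to 79.2% in YAP1, 96.8% in CAD1 and 100% in PET111. The 4 genes with the longest ORFs, CLN3, HAP4, YAP1 and PET111, had 75.7%, 67.3%, 79.2% and 100%. Those with shorter ORFs, CAD1, INO2, CPA1, GCN4 and SCO1, had 96.8%, 62.3%, 41.7%, 22.7% and 11.5%. No such share over all ORFs is given here, so how usual these values are is not shown. GCN4 alone supplied 94.6% of the 9939 leader molecules of the 9 genes.

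Leaders of most of these genes were long compared with other ORFs. The median over the 6 genes that could be judged was 352 nt, against 44 nt over the 3768 ORFs, whose quartiles were 27 and 77 nt. It was 202.5 nt with each isoform counted once, and 158 nt over the 3 genes with at least 50 leader molecules. The median over 7 genes, with CPA1, was 339 nt. The share of ORFs with a shorter median leader was 97.7% for CLN3, 97.5% for HAP4, 99.2% for INO2, 90.3% for YAP1, 88.3% for CPA1 and 42.5% for SCO1.

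**Figure D3:**
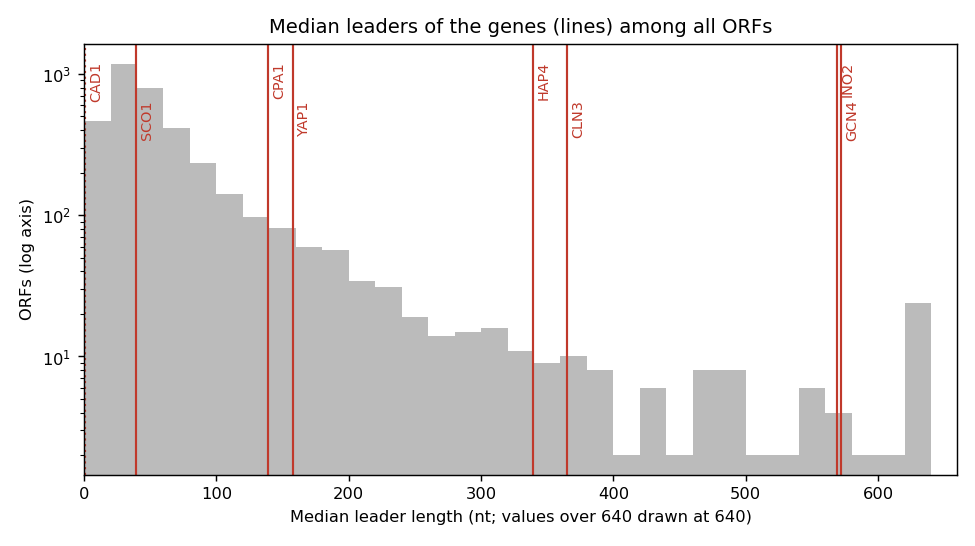
Number of ORFs (vertical log axis) by median leader length (horizontal axis, nt) over the 3768 ORFs with at least 10 leader molecules, with the medians of the named genes as lines; the dotted line is CAD1, which had 7 leader molecules. GCN4 and INO2 lie at 572 and 569 nt, SCO1 at 39 nt.

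Upstream ATGs became more frequent with leader length across all ORFs, and the named genes were read against that. Over 50% of leader molecules held one in 8.07% of ORFs with a median leader of 50 nt or less and in 30.9% of those over 100 and up to 200 nt. Above 300 nt the share was 80.3%, 98 of 122 ORFs. GCN4, CLN3, HAP4 and INO2 belong to the last class and all 4 held one, so their share is near that of other ORFs with genomic leaders this long. With each isoform counted once, the medians of INO2 and HAP4 were 76 and 256 nt and both left that class. CPA1 and YAP1 belong to the class up to 200 nt. Per 100 nt of leader, molecules of GCN4 held 0.697 upstream ATGs, CLN3 0.286, CPA1 0.490, HAP4 0.599, SCO1 0.795, YAP1 0.890 and INO2 1.71, against 0.650 over all ORFs. The GCN4 value was close to that of all ORFs. All these leaders were measured along the genome, and introns were not removed. An intron in a leader would add to its length and could add ATGs that the spliced RNA lacks. How far this raises the 80.3% of the class above 300 nt was not tested.

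**Figure D4:**
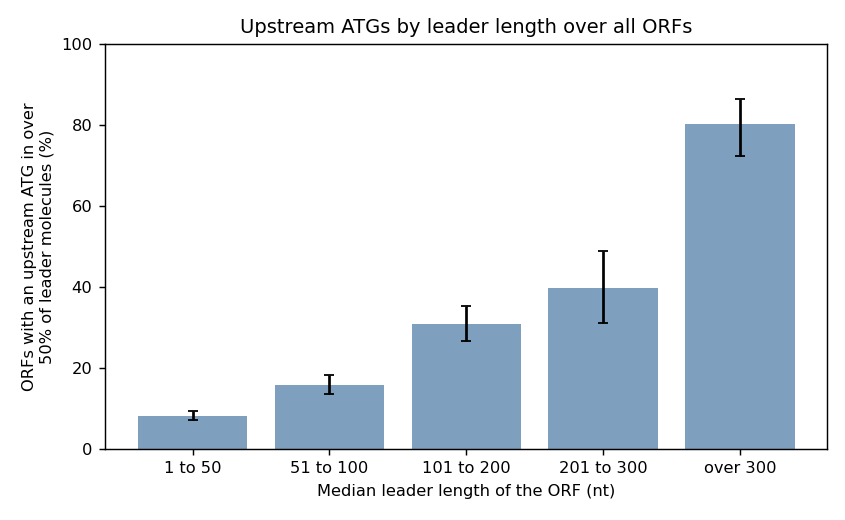
Share of ORFs (vertical axis, %) in which over 50% of leader molecules held an upstream ATG, by the median leader length of the ORF (horizontal axis, nt), with 95% Wilson intervals as error bars. The share was 8.07% up to 50 nt and 80.3% over 300 nt.

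The 31 upstream ATGs found in at least 1 leader molecule of the 9 genes opened frames of 2 to 37 codons with the stop codon, with a median of 7. Counted by ATG, 30 of these frames ended before the main start codon, 1 overlapped it and 0 extended the main ORF in frame. ATGs that share a frame and its stop codon were each counted, so some frames enter more than once. These are CPA1 at 457 and 454 nt and INO2 at 329, 317 and 248 nt. In YAP1 they are those at 610 and 589 nt and at 261 and 240 nt. An A at position -3 favours initiation in yeast. It preceded 11 of the 31, or 35.5% (21.1% to 53.1%), and 6 of the 9 main start codons. Over all ORFs, 29.1% of 1572 upstream ATGs within the median leader had it, as did 63.7% of start codons. Among the 19 upstream ATGs held by over 50% of a gene's leader molecules, 9 had it, or 47.4% (27.3% to 68.3%), the 4 of GCN4 and 5 of INO2. CPA1 at 454 nt and YAP1 at 589 nt, each in a single isoform, were the other 2 of the 11. The 5 of INO2 were held only by molecules that started at 569 nt, 11 molecules in 2 isoforms. These were 55% of INO2 leader molecules (34.2% to 74.2%). The intervals on these shares count each ATG as independent, although ATGs of 1 leader occur together.

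Further lists, all compiled from general knowledge, were examined for the same measure. Among 12 other genes for which upstream reading frames have been reported, 8 had at least 10 leader molecules and 5 held an upstream ATG in over 50% of them. The share was 15.9% over all ORFs. The 5 included CBS1, an activator of mitochondrial translation, with 100% of 60, and RPC11, a subunit of RNA polymerase III, with 97.7% of 310. Also among them, ARV1 had 86.0% of 57, HOL1, a transporter, 94.7% of 19 and MKK1, a kinase of the cell wall pathway, 100% of 13. SCH9, DCD1 and MBR1 had 0% of 19, 25% of 44 and 0% of 12. The median of median leaders was 141.5 nt over these 8, but they fall in different length classes. CBS1, RPC11 and MKK1 have medians over 100 and up to 200 nt, where 30.9% of all ORFs passed. HOL1 and SCH9, at 398 and 472 nt, belong to the class above 300 nt, with 80.3%. ARV1 and MBR1, at 86 and 61 nt, belong to that over 50 and up to 100 nt, with 15.8%. DCD1, at 14 nt, belongs to the shortest class, with 8.07%.

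Among genes that act on GCN4 translation, none of those that could be judged passed the same limit. Of 11 genes of general control and of the initiation factor eIF2 and its exchange factor, 9 had at least 10 leader molecules and 0 were over 50%, where the share over all ORFs was 15.9%. With 9 genes, a count of 0 is near that background. The median of their median leaders was 57 nt. SUI2 and SUI3, which encode eIF2 subunits, held an upstream ATG in 0.133% of 754 and 0.352% of 1136 leader molecules, GCD11, the third subunit, in 0% of 1034, and GCN3, a subunit of the exchange factor, in 2.14% of 421. GCN2, the kinase that senses starvation, had 4 leader molecules, too few to be judged, and all 4 held one. Of 3 genes of nonsense-mediated decay, the pathway that degrades mRNAs with early stop codons, UPF3 could be judged and had 0% of 37.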

How the data were processed

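Per the file headers, the deposited counts are whole numbers, 1 for each combination of strand, start and end, in 1 column named after the strain. How the authors combined the 2 samples, what they filtered and whether they removed duplicates is not given in the sources used here. The submitters' processing notes name R64, CASAVA and Novoalign 2.07.10, without their roles. There were 0 unmapped value columns. The build was checked: the pyrimidine and purine pair stood at 73.3% of start sites with at least 30 molecules, and at no more than 28.1% after any shift of up to 20 nt.

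Counts were used without scaling. Leaders were measured on R64 RefSeq ORFs from start to stop codon. Every ATG lying whole in the genomic stretch of a leader counted as held, and introns in leaders were not removed. Start positions at most 10 nt apart were joined into clusters, and clusters with at least 10% of leader molecules and 3 molecules are described. Of 200 ORFs with simulated isoforms, 200 gave back the known medians and shares. All simulated leaders stopped short of the upstream ORF and all simulated molecules ran past the stop codon. The check therefore did not cover the setting aside of molecules at an upstream ORF, or molecules that end inside the ORF. No test was made, since there is 1 group and 1 pooled column. The genes and lists were chosen with earlier results of these data known, and the named genes are the 9 given plus list members. One planned list member is not reported here. Python 3.11.15, numpy 2.4.6 and pandas 2.3.3 were used.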

Additional observations from a re-analysis of the deposited data

Results flagged for a closer look

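Some molecules lay outside the counts above and exceeded 3 molecules, the limit for a count of 0, in a series with no control sample. Upstream of HAP4, 118 molecules in 15 isoforms started 256 to 395 nt before the start codon and ended before it, against 16 leader molecules that entered the ORF. Of the 118, 110 ended at the same position, 24 nt before the start codon, and the 10 nt of genome that follow it are 10 of 10 A. Priming on that run in place of a poly(A) tail was not tested. Upstream of GCN4, 27 molecules in 9 isoforms ended before the start codon, 18 of them 40 nt before it, where 2 of the next 10 nt are A. Upstream of PET111, 5 molecules started 388 nt before the start codon and ended before it. The most used end, with 3 of the 5, lay 60 nt before the start codon. These 3, of 1 isoform, spanned the ATGs at 108 and 89 nt.

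Antisense molecules over the coding span numbered 48 for CPA1, 27 for INO2, 19 for CLN3, 10 for HAP4 and 9 for YAP1.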

How the results depend on the processing

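The number of genes with an upstream ATG in over 50% of leader molecules was 5 of 6. Over the alternatives it ranged from 4 of 5 or 4 of 6 to 6 of 7. This range leaves out the alternative of at least 50 leader molecules, under which 3 genes remain. These are GCN4 with 95.9%, YAP1 with 89.3% and SCO1 with 28.4%. The 599 ORFs of the background, 15.9% of 3768, fell by construction to 349, or 9.26%, with a share of at least 90% required. With at least 50 leader molecules they were 274 of 2505, or 10.9%, so the share fell as well as the count. With at least 12 nt in front of the ATG required, they were 435 of 3768, or 11.5%. The median leader over the genes ranged from 158 nt, with at least 50 leader molecules in 3 genes, to 356 nt with isoforms of at least 2 molecules, and was 203 nt with each isoform counted once. Counting each isoform once took the GCN4 share to 77.0%, since its scattered starts are many isoforms of few molecules. With at least 12 nt in front of the ATG required, SCO1 fell to 0% and CLN3 to 64.7%. With molecules that reached the stop codon, YAP1 had 100% of 14. A cluster gap of 20 nt gave YAP1 2 clusters in place of 4, and a gap of 5 nt gave SCO1 2 in place of 1. YOR302W as part of the CPA1 leader was an alternative chosen after seeing the data. Leaving out a replicate was not possible with 1 pooled column. No paired analysis was possible because the table has 1 pooled column and the series 1 group. Few molecules limit CLN3, HAP4, INO2, CAD1 and PET111.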
